A study of Homo sapiens with 4 samples.

Results

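The 48 genes described here are those whose symbol begins with PSMA, PSMB, PSMC, PSMD, PSME, PSMF or PSMG followed by a number. They were taken by name alone, with no measured value, from a table of 26364 gene symbols. They comprise 19 genes of the proteasome's catalytic core, 20 of its regulatory particle and that particle's chaperones, 4 activator genes, PSMF1, and the 4 chaperones of the core, PSMG1 to PSMG4. Of the 48, 44 had enough counts to be tested; PSMA8, PSMB8, PSMB9 and PSMB11 did not.

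The proteasome is the protease that degrades proteins tagged with ubiquitin in the cytosol and nucleus. Its core is a barrel of outer alpha rings and inner beta rings, and 3 of the beta subunits, PSMB5, PSMB6 and PSMB7, carry the active sites. The regulatory particle caps the barrel: its base holds the ATPases PSMC1 to PSMC6, which unfold the substrate, and its lid holds PSMD14, the enzyme that removes ubiquitin. Interferon replaces the 3 active subunits with PSMB8, PSMB9 and PSMB10, and the activators PSME1 and PSME2 cap the core in place of the regulatory particle. Many subunit genes are known to be transcribed together by NFE2L1, which binds antioxidant response elements when proteasome activity falls.

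The cells were Ishikawa, a human line from an endometrial adenocarcinoma, with the Y537S change in ESR1, the gene for estrogen receptor alpha. All groups carried this change, and all were kept without hormones before treatment. Mutant cells received the vehicle, 0.1% DMSO, or 10 nM estradiol (E2) for 8 h, with 2 libraries per treatment from 2 clones. Each clone is a single isolate, and nothing in the labels speaks of separate cultures of a clone. The question addressed here is how much RNA of each proteasome gene these cells held, with and without the ligand, and whether the clones differed. In the count table the columns carry the tags A4 and B212, each with 1 DMSO and 1 E2 library; no label links a tag to clone 1 or clone 2. The libraries are therefore named by tag and treatment. A difference between the tags belongs to these clones and to anything else that differed between their cultures or libraries, and these cannot be told apart. P-values measure the spread between these 4 libraries only, which may be technical in part. In a fit with both tag and treatment, that spread is how far the change with E2 differs between the tags, with information shared over genes. It is not a spread between replicate cultures.

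The 4 libraries held 71575816 to 85222856 counts, and counts of every pair differed beyond sampling noise (chi-square per degree of freedom 27.1 to 218.4). ESR1 had 8049 counts in A4 DMSO, 7956 in A4 E2, 9163 in B212 DMSO and 6342 in B212 E2; a count does not show the mutation. The label of endometrial adenocarcinoma was checked against marker genes. All 9 markers on the epithelial list and 9 of 10 Müllerian and endometrial markers were expressed, FOXA2 having 0 counts in every library. The epithelial list includes CDH2 (N-cadherin), which is more often taken as a mesenchymal marker. Markers of other cell types were partly present. Of 7 stromal markers 4 passed the count filter, with COL1A1 at 2531 to 9363 counts and DCN at 1 at most. Of 9 immune markers 4 passed, with CD74 at 2221 to 3540 counts, PTPRC at 25 to 37, and CD3E and CD3D at 0. Of 5 endothelial markers 2 passed, with VWF at 167 to 372 counts and PECAM1 at 0.

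Promoter sequence is shown first, for members chosen after their values were seen as examples from the beta ring, the lid, the core chaperones and the activators. The windows come from RefSeq (GRCh38.p14), which gave a promoter for 42 of the 48 genes, among them the untested PSMB9 and PSMB11. The 250 bases before each listed start were searched on both strands. A gene counted if any of its starts matched, so the shares depend on the number of starts listed. The core of the antioxidant response element, TGACNNNGC, was found in 13 of the 42 (31.0%), against 15.9% of the 11250 tested genes with a promoter and 13.2% of all 27305 genes. It is in capitals in the next windows, each read 5′ to 3′ on the gene's strand.
PSMB3, chr17:38752622-38752660, plus strand: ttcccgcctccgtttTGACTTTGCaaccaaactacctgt
PSMD3, chr17:39980755-39980793, plus strand: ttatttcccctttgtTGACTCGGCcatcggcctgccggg
PSMD12, chr17:67366719-67366757, minus strand: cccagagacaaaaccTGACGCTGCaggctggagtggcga
PSMG1, chr21:39183611-39183649, minus strand: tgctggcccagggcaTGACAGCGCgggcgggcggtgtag
PSME1, chr14:24136093-24136131, plus strand: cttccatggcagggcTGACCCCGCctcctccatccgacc
The element begins 104 bases before the start in PSMB3, 37 in PSMD3, 165 in PSMD12 and 86 in PSME1. PSMD3 was among the members most reduced in B212, and PSME1, which holds the same motif, was the only member called higher there.

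A second motif lies near the starts of PSMB10 and PSME2, which belong to the interferon-induced forms. The core of the interferon-stimulated response element, GAAA and GAAA with any 2 bases between, was found in 5 of the 42 promoters (11.9%), against 3.26% of tested and 3.71% of all genes. The 5 are PSMA4, PSMB4, PSMB10, PSME2 and PSMG4, so the motif was not confined to the interferon-induced forms. PSMB9 and PSME1 of those forms had a promoter without it. Both genes shown have the letters GAAAGCGAAA, in capitals.
PSMB10, chr16:67936851-67936886, minus strand: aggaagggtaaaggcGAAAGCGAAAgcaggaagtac
PSME2, chr14:24146614-24146653, minus strand: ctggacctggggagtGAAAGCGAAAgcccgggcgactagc
They begin 21 bases before the start of PSMB10 and 28 before that of PSME2. PSMG4, a core chaperone gene, holds the same letters 33 bases before its start. The palindromic estrogen response element, GGTCA and TGACC with any 3 bases between, was in 0 of the 42 windows, and in 0.0267% of tested and 0.0513% of all genes, so few that its absence from these windows says little. CCAAT was in 45.2% of member promoters, 41.0% of tested and 37.0% of all genes. A match describes these letters only, not binding.

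Most of the tested proteasome genes were expressed far above the typical gene, but PSMB10 and PSMG4 were below the median of all tested genes in every library. Levels are compared between genes as TPM, which divides by transcript length; the length used was that of 1 transcript per symbol. The 15 core genes tested had a median of 414 TPM in A4 DMSO, 488 in A4 E2, 369 in B212 DMSO and 428 in B212 E2. The regulatory genes had medians of 241, 269, 180 and 187 TPM in the same order, and all tested genes 18.8, 16.8, 19.5 and 19.0. Together the members took 0.789% of all counts in A4 DMSO, 0.872% in A4 E2, 0.604% in B212 DMSO and 0.640% in B212 E2. Both A4 libraries were above both B212 libraries in this share, and within each tag the E2 library was the higher one.

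Within the core, levels spanned a wide range. By the mean over libraries the highest were the beta subunit PSMB4 (765 TPM), PSMA7 of the alpha ring (715) and PSMB1 (706). Their order varied: PSMA7 (919 TPM) was above PSMB4 (874) in A4 E2, and PSMB1 (583 and 655) above PSMA7 (556 and 588) in both B212 libraries. On the same mean the lowest constitutive subunits were PSMA5 (136 TPM) and PSMB7 (159 TPM). The other active-site subunits, PSMB5 and PSMB6, had 353 and 344 TPM. PSMB10, the interferon-induced counterpart of PSMB7, had 10.8 TPM. Among regulatory genes PSMC3 was the highest ATPase (434 TPM) and PSMC1 the lowest (45.1 TPM). PSMD2, the base scaffold that receives ubiquitin-carrying shuttles, had 430 TPM and PSMD4, a ubiquitin receptor, 186. In the lid PSMD8 was highest (395 TPM) and PSMD12 lowest (95.3 TPM). Of the chaperones of the base, PSMD10 had 162 TPM and PSMD9 54.7. The activators ran from 230 TPM for the nuclear activator PSME3 to 75.1 for PSME4. PSMF1, which binds the core and inhibits it in vitro, had 95.9 TPM, and the core chaperones ran from PSMG1 (136 TPM) to PSMG4 (3.97 TPM). These orders rest on the length chosen: with the median length over a gene's transcripts, 29 of the 44 levels moved by more than 1.5-fold, PSMA4 from 211.6 to 567 TPM and PSMG4 from 3.97 to 10.4.

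**Figure D1:**
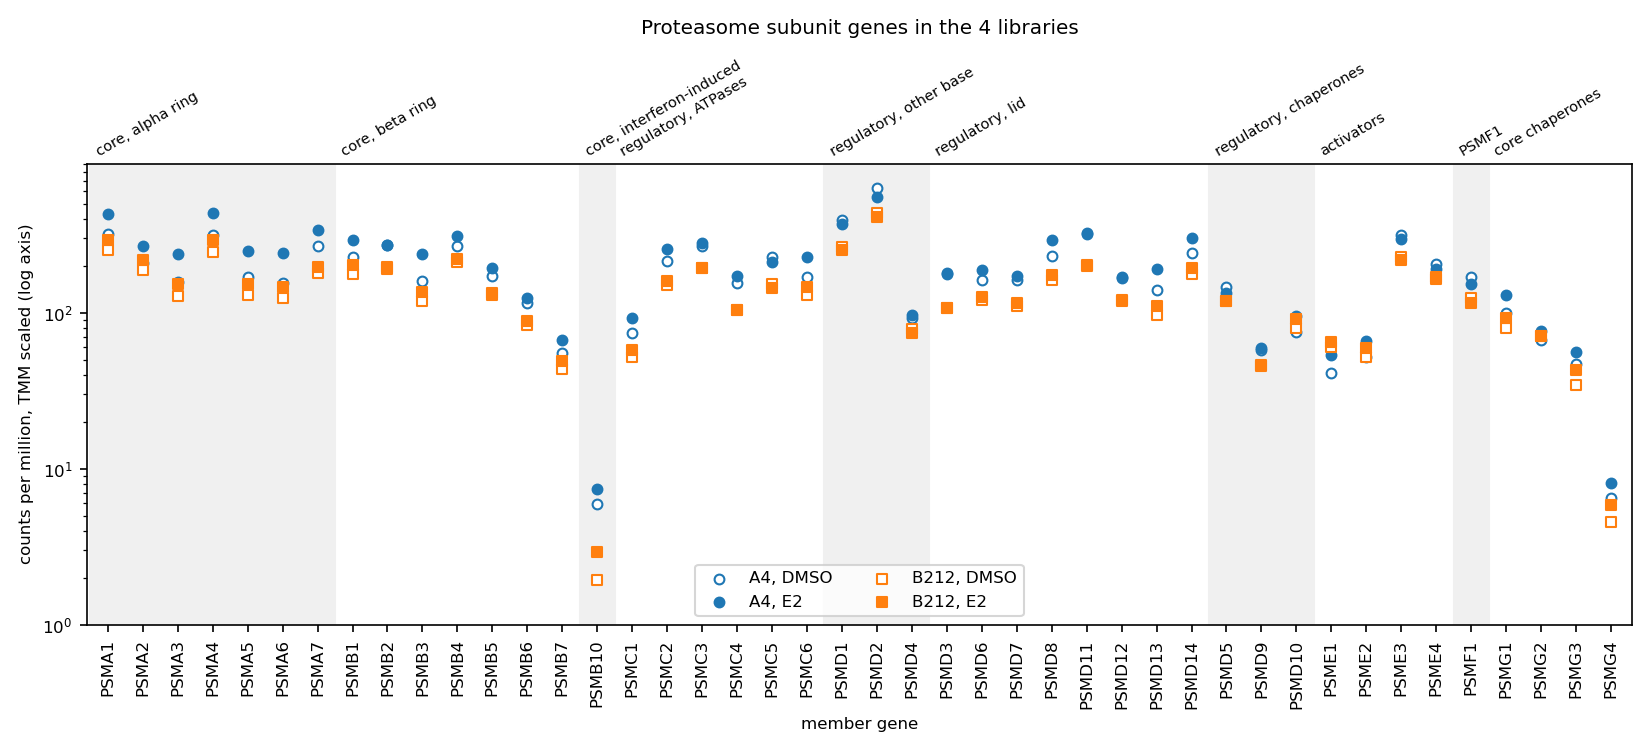
CPM (counts per unit of TMM-scaled library size, log axis) of the 44 tested members in the 4 libraries; blue circles are A4, orange squares B212, open symbols DMSO and filled symbols E2. For most core and regulatory genes both blue points lie above both orange ones, PSME1 shows the reverse order, and PSMB10 and PSMG4 are the lowest.

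Of the 4 genes not tested, the testis-specific alpha subunit PSMA8 had 1 count, in B212 DMSO, and the thymus-specific beta subunit PSMB11 had 1 count, in A4 DMSO. PSMB8 and PSMB9 had 0 counts in every library, where the limit a count of 0 allows (3 counts) is 0.0352 to 0.0419 CPM (counts scaled to a common library size), for counting error only. These zeros cannot be read as absence, because the table lost counts across the surrounding region. Both genes lie in the MHC region of chromosome 6, next to TAP1 and TAP2, which also had 0. Of 30 genes of that region on a list of mostly widely expressed genes, 19 had at most 1 count in every library. Among them was RPS18, a ribosomal protein gene that every cell uses (0, 0, 0 and 1 counts). Both the 30 and the 19 include PSMB8 and PSMB9 themselves. Only 7 of the 30 had at least 10 counts in each library, and the highest count was 3467, for TUBB. The immunoproteasome therefore could be followed only through PSMB10, PSME1 and PSME2, which lie elsewhere.

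The clearest difference among the members was between the tags. In B212, 40 of the 44 tested members were lower than in A4, 1 was higher and 3 did not pass (edgeR quasi-likelihood test with treatment as a covariate, Benjamini-Hochberg adjusted p under 0.05). Across all 15599 genes tested, 25.8% were lower and 25.2% higher, and the median log2 fold change was 0.0042. The median over the members was -0.48, or 0.716-fold. In 39 of the 44, both B212 libraries lay below both A4 libraries, against 32.8% of all genes; 1 member was higher in both B212 libraries, against 34.7%. In bulk RNA, fewer cells of a type and less RNA per cell cannot be told apart.

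All 15 tested core genes were lower in B212. The median log2 fold change was -0.47, and the alpha and beta rings had the same median at this precision. PSMB10 differed most, with 433 counts in A4 DMSO, 611 in A4 E2, 166 in B212 DMSO and 213 in B212 E2. Its log2 fold change was -1.47 ± 0.136 (SE; edgeR adjusted p = 2.15e-08), or 0.360-fold. The lower A4 count was above the higher B212 count, and the tags did not overlap. Of the 5 tested neighbours of PSMB10, 4 were lower as well, by less than PSMB10: CTRL by a log2 fold change of -1.02 (57 and 73 counts in A4 DMSO and E2, 35 and 30 in B212), SLC12A4 by -0.46, EDC4 by -0.37 and PSKH1 by -0.25. LCAT, directly beside it, was the exception (-0.06, adjusted p = 0.860). PSMA7 followed among core genes, at 266.7 and 336.1 CPM in A4 DMSO and E2 and 180.4 and 194.9 in B212 (-0.68, adjusted p = 2.55e-07). The active-site subunits moved by like amounts: PSMB5, the chymotrypsin-like site and the target of bortezomib, by -0.47 ± 0.070 (edgeR adjusted p = 1.34e-05), PSMB6 by -0.48 (9.23e-06) and PSMB7 by -0.38 (2.44e-04). PSMB5 had 170.8 and 191.9 CPM in A4 DMSO and E2, and 128.9 and 132.7 in B212. PSMA2 was the smallest called difference (-0.22, adjusted p = 0.0152), and its A4 DMSO value of 206.9 CPM lay below B212 E2 (218.2), the one overlap between tags in the core.

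In the regulatory particle 19 of 20 genes were lower in B212, with a median of -0.55, or 0.681-fold. PSMD3, a lid subunit, had 178.0 CPM in A4 DMSO, 178.5 in A4 E2, 106.3 in B212 DMSO and 106.7 in B212 E2. The values split by tag and barely by treatment, and the log2 fold change was -0.74 ± 0.069 (edgeR adjusted p = 2.22e-08). All 8 lid genes were lower (median -0.60), among them PSMD11 (-0.68, 9.62e-08), PSMD13 (-0.66, 3.95e-07), PSMD8 (-0.63, 6.12e-07) and PSMD7 (-0.56, 1.10e-06). All 6 ATPases were lower as well (median -0.58), led by PSMC4 (-0.65, 2.15e-07), PSMC2 (-0.59, 9.56e-07) and PSMC1 (-0.60, 1.15e-06). The 3 other base genes had a median of -0.47. PSMD10, a base chaperone also called gankyrin, was the one regulatory gene that did not pass: it had 75.5 and 94.8 CPM in A4 DMSO and E2 and 79.8 and 91.6 in B212 (0.014, adjusted p = 0.886).

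The activators did not share a direction. PSME1, the alpha chain of the interferon-induced 11S cap, was higher in B212 by 0.41 ± 0.079 (edgeR adjusted p = 2.00e-04), or 1.33-fold, with 41.1 and 53.4 CPM in A4 DMSO and E2 and 59.9 and 65.3 in B212. Both B212 values were above both A4 values. PSME2, the beta chain of the same cap and a near neighbour of PSME1 on chromosome 14, had 52.1 and 65.5 CPM in A4 and 52.0 and 59.1 in B212 (-0.08, adjusted p = 0.417), with overlapping tags. No tested neighbour of PSME1 was called higher with it: NRL (-0.64), PCK2 (-0.96), FITM1 (-1.09) and RNF31 (-0.23) were lower, and DCAF11 (0.06), EMC9 (-0.03), PSME2 and IRF9 (0.31, adjusted p = 0.0508) did not pass. The other activators were lower, PSME3 by -0.46 (1.55e-05) and PSME4 by -0.25 (0.00567), and PSMF1 by -0.43 (3.28e-05). Of the core chaperones PSMG1 (-0.40, 1.11e-04), PSMG3 (-0.41, 1.53e-04) and PSMG4 (-0.49, 0.00150) were lower, and PSMG2, the partner of PSMG1, was not called (-0.01, adjusted p = 0.909).

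**Figure D2:**
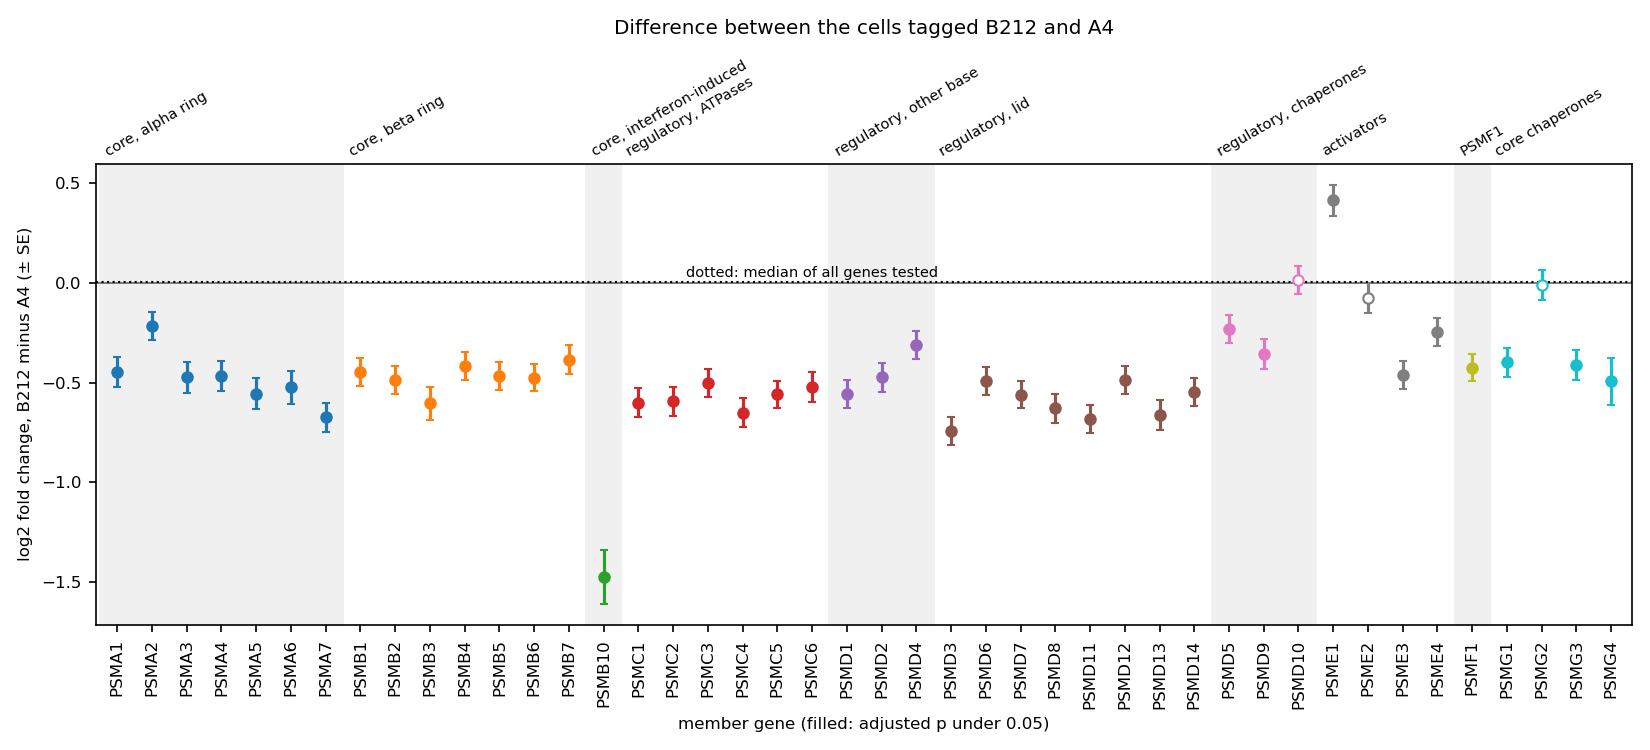
Log2 fold change of B212 over A4 with its SE for each tested member, from the edgeR fit with treatment as a covariate; filled points have an adjusted p under 0.05 and the dotted line is the median of all genes tested. All core genes but PSMB10, and nearly all regulatory genes, lie between -0.2 and -0.8, while PSMB10 lies at -1.47 and PSME1 at 0.41.

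The difference was seen with either treatment. In DMSO alone the members' median log2 fold change was -0.43, and in E2 alone -0.53, each from 1 library per tag. After each library was corrected for a smooth dependence on GC content and transcript length, 40 members were again lower and 1 higher, where 28.3% of all genes were lower and 26.4% higher. With library size alone as the scaling, 38 were lower and 1 higher, and the split over all genes turned from 3927 higher and 4023 lower to 4761 higher and 3176 lower. Markers moved with the tags too. The epithelial list took 0.281% and 0.257% of counts in A4 DMSO and E2 and 0.362% and 0.335% in B212. Of its 9 genes 7 were called higher in B212, against 25.2% of all genes. Both the share and the 7 include CDH2, with 47318 and 47109 counts in A4 and 66807 and 55334 in B212. CD74 was lower in B212 (-0.52) and VWF higher (0.58). Stromal markers summed to 0.0130% and 0.0092% of counts in A4 and 0.0047% and 0.0039% in B212, nearly all of it COL1A1, with DCN at or near 0. THY1 of the same list went the other way (1.36), with 87 and 113 counts in A4 DMSO and E2 and 290 and 234 in B212. Müllerian and endometrial markers split. PGR (-2.67), ALPP (-1.05), HOXA11 (-0.65) and ALPPL2 (-0.28) were lower in B212, and SOX17 (0.93), EMX2 (0.80) and PAX8 (0.61) were higher. HOXA10 and ESR1 did not pass. The part of the markers in the result was not tested. Without B212 DMSO 12 members were called lower and without B212 E2 24, against 27 with all 4 libraries in the same fit, which had no treatment term.

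With estradiol fewer members differed, and by less. With the 4 libraries taken as 2 groups, edgeR called 0 of the 44 members and 0% of the 15599 genes; 150 genes and 0 members had an unadjusted p under 0.05, and DESeq2 called 1 gene, no member. The smallest member p-values were those of PSMD10 (log2 fold change 0.26 ± 0.107), PSME2 (0.26) and PSMA2 (0.30), each with an edgeR adjusted p of 0.9999. The spread within a treatment was mainly the difference between the tags: the biological coefficient of variation was 32.2% without a block and 5.99% with the tag as one. With the tag as a block, so that E2 is compared with DMSO inside each tag, 17 members were higher with E2 and 0 lower, where 6.13% of all genes were higher and 3.44% lower (956 and 536 genes, or 911 and 775 with library size alone as the scaling). The median log2 fold change over members was 0.20 with the block and -0.0081 over all genes.

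With the block, 6 of the 7 tested alpha ring genes, PSMA1 to PSMA6, were higher with E2, out of 17 members called. PSMA3 had 158.0 CPM in A4 DMSO, 236.7 in A4 E2, 126.9 in B212 DMSO and 152.9 in B212 E2. E2 was above DMSO in both tags, and the A4 step was the larger one. Its log2 fold change was 0.43 ± 0.077 (edgeR adjusted p = 0.00265); the antisense gene PSMA3-AS1 had counts amounting to 26.4% of those of PSMA3, and whether the counting used strand is not given in the sources used here. PSMA6 had 154.7 and 241.5 CPM in A4 DMSO and E2 and 123.7 and 146.3 in B212 (0.44 ± 0.082, edgeR adjusted p = 0.00312). PSMA5 (0.40, 0.00458), PSMA4 (0.37, 0.00547), PSMA1 (0.32, 0.0127) and PSMA2 (0.29, 0.0145) followed, and PSMA7 did not pass (0.22, 0.0615).

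The beta ring behaved less evenly. PSMB3 (0.38 ± 0.081, edgeR adjusted p = 0.00777) and PSMB1 (0.29, 0.0166), both without an active site, were higher with E2 in the block fit. PSMB3 had 158.7 and 235.8 CPM in A4 DMSO and E2 and 119.5 and 135.6 in B212, so that its step in A4 was again the larger. Of the active-site genes none passed: PSMB5 had a log2 fold change of 0.11 (0.365), PSMB6 of 0.10 (0.401) and PSMB7 of 0.23 (0.0580). PSMB10 passed narrowly (0.44 ± 0.135, edgeR adjusted p = 0.0461) on the lowest counts of any core gene tested, and its step was larger in B212 (0.57) than in A4 (0.33). Over the core the median was 0.29, with 9 of 15 genes called.

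In the regulatory particle 5 of 20 genes were called, and the median was 0.05. They were the ATPase PSMC6 (0.30, edgeR adjusted p = 0.0157), the lid genes PSMD13 (0.31, 0.0139), PSMD8 (0.24, 0.0468) and PSMD14 (0.23, just under the threshold of 0.05), and the chaperone PSMD10 (0.26, 0.0246). PSMD13 had 140.0 and 190.1 CPM in A4 DMSO and E2 and 97.0 and 109.7 in B212, higher with E2 in each tag. PSMC1 (0.23, 0.0546) and PSMC4 (0.06, 0.643) did not pass, nor did PSMD2 (-0.13, 0.274), PSMD4 (-0.01, 0.925) or PSMD12 (0.01, 0.957). PSME2 was the only activator called (0.26, 0.0354); PSME1 had 0.25 (0.0519), PSME3 -0.07 (0.603) and PSME4 -0.08 (0.483), and PSMF1 had -0.11 (0.312). Of the core chaperones PSMG1 (0.29, 0.0160) and PSMG3 (0.30, 0.0190) were called, and PSMG4 (0.34, 0.0738) and PSMG2 (0.10, 0.439) were not.

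**Figure D3:**
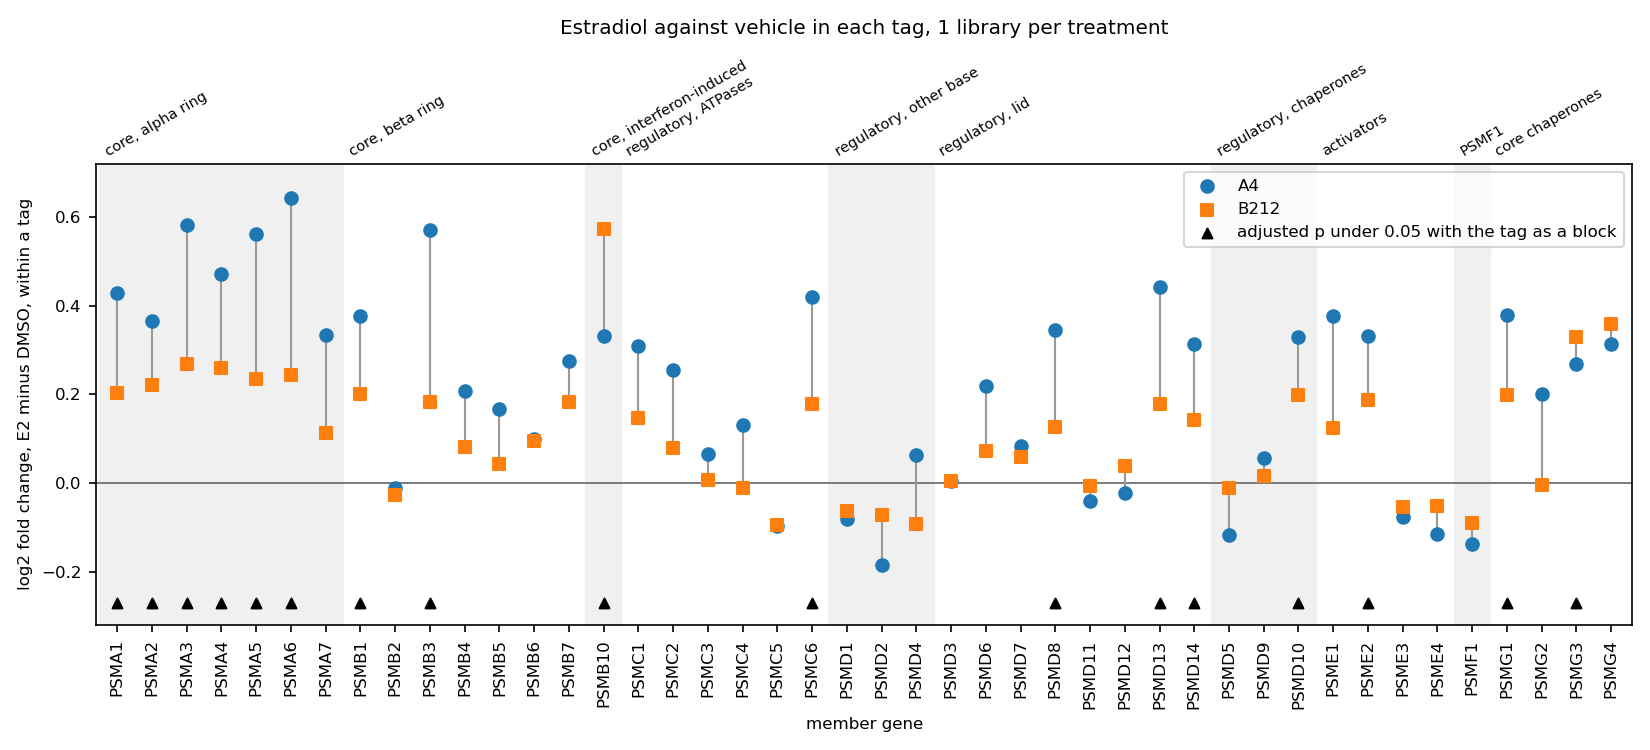
Log2 fold change of E2 over DMSO within A4 (blue circles) and within B212 (orange squares), each from 1 library per treatment; triangles mark the 17 members with an adjusted p under 0.05 once the tag is a block. Alpha ring genes are above 0 in both tags and higher in A4, while base genes other than ATPases, PSME3, PSME4 and PSMF1 lie near or below 0.

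Within the tags, 31 of the 44 members were higher with E2 in both, against 33.3% of all genes, and 9 were lower in both, against 36.8%; 4 went opposite ways. The core median was 0.36 in A4 and 0.20 in B212, and the regulatory median 0.07 and 0.03. The step was larger in A4 for 31 of the 44 members and for 7657 of the 15599 genes. With 1 library per tag and treatment this difference between the tags could not be tested.

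Transcript length moved with the E2 result. The median transcript length was 1029 bases for core genes, 2074 for regulatory genes and 3292 for all tested genes that have a length. Of 31 members shorter than that last value 15 were called higher with the block (48.4%), and of 13 longer ones 2 (15.4%); among all genes the shares were 9.19% and 3%. Removal of the length and GC trend in the block fit left 5 members higher and 0 lower, where 1.81% of all genes were higher and 1.04% lower: PSMA4 (0.34, edgeR adjusted p = 0.0247), PSMA5 (0.29, 0.0433), PSMD13 (0.29, 0.0411), PSMC1 (0.30, 0.0382) and PSMG4 (0.45, 0.0484). The core median was then 0.09. The longest transcript used for PSMA4 has 4411 bases, while the median over its transcripts is 773, and for PSMG4 the values are 4603 and 824. With the median length in place of the longest, an alternative chosen after seeing the data, 16 members were higher and 0 lower, against 5.42% and 3.69% of all genes, and the core median was 0.24. Of the 16, 13 were among the 17 of the block fit, and PSMA7, PSMC1 and PSME1 were added. PSMA4, PSMA5 and PSMD13 were called in every one of the 8 block fits run.

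**Figure D4:**
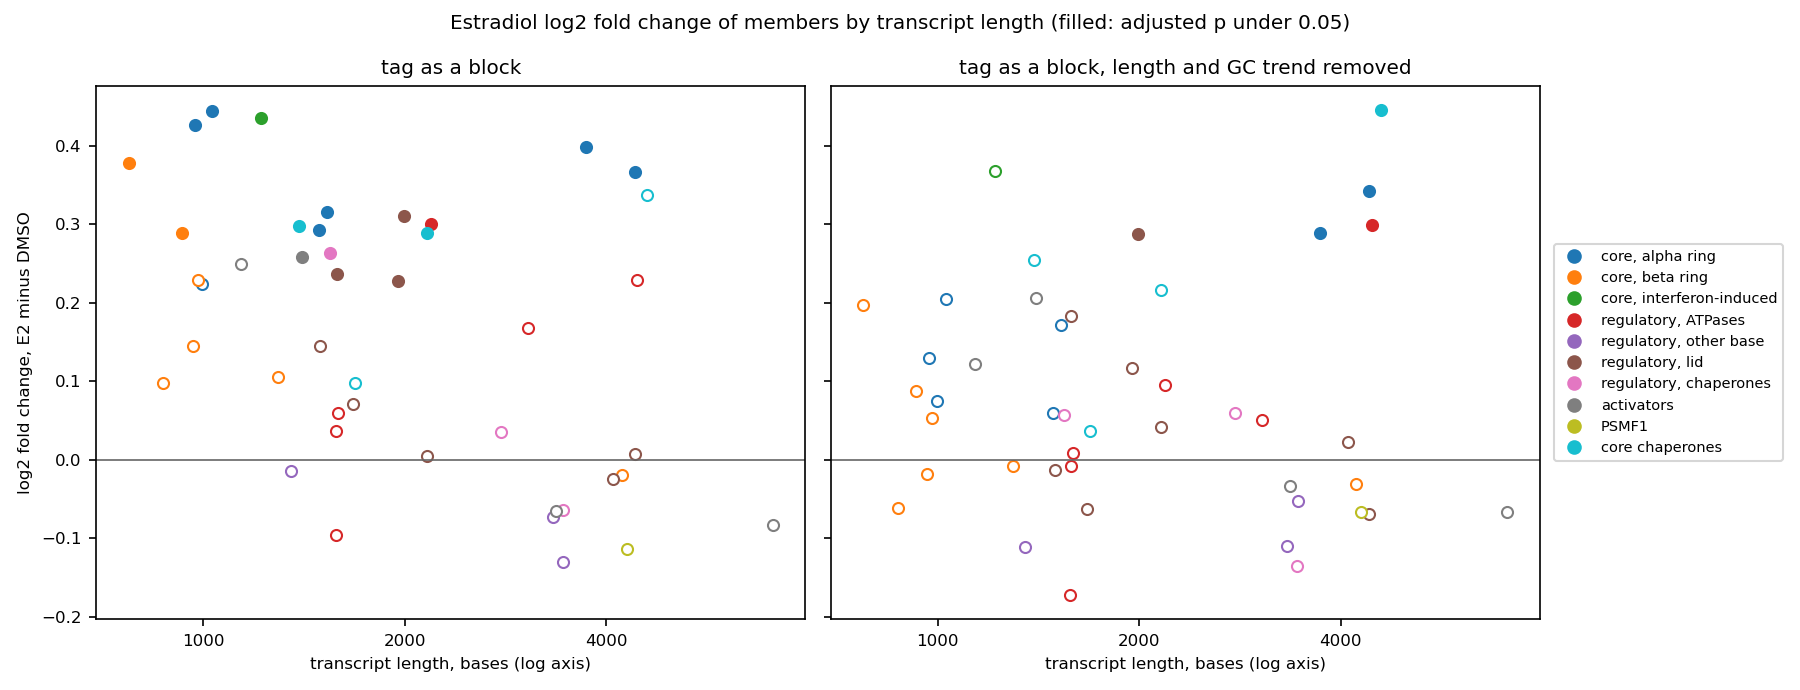
Log2 fold change of E2 over DMSO in the block fit against transcript length (log axis, longest transcript) for the tested members, before (left) and after (right) removal of the length and GC trend; colours are classes and filled points have an adjusted p under 0.05. On the left 15 of the 17 filled points belong to genes shorter than 3292 bases; on the right 5 points are filled and the short core genes have moved toward 0.

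Other genes of the pathway were read from lists of proteasome partners not caught by the symbol rule. Of 37 such genes, all tested, 19 were lower and 2 higher in B212 (edgeR; all genes 25.8% and 25.2%), with a median of -0.20. Of 7 further subunit or assembly genes 4 were lower and 0 higher. KIAA0368 (ECM29), which binds core and cap, had 219.7 and 201.1 CPM in A4 DMSO and E2 and 118.7 and 115.9 in B212 (-0.84, adjusted p = 4.29e-09). POMP, the maturation factor of the core, was lower by a log2 fold change of -0.56. Of 11 shuttle and segregase genes 7 were lower and 0 higher, ZFAND2A by -0.54. Of 9 genes for the transcription of subunits or its control 5 were lower and 1 higher. NFE2L1 had 22651 counts in A4 DMSO, 21768 in A4 E2, 17240 in B212 DMSO and 13079 in B212 E2. Its log2 fold change was -0.59 (edgeR adjusted p = 6.47e-07), and both B212 libraries were below both A4 libraries. Any part of NFE2L1 in the difference of the members was not tested. MAFF, a partner of factors such as NFE2L1, was lower on few counts (-0.66, edgeR adjusted p = 0.0492). Of 6 ubiquitin and E1 genes 2 were lower and 1, the E1 enzyme UBA6, was higher (0.88); BACH1, a repressor at antioxidant elements, was the other gene higher (0.21).

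With E2 in the block fit 6 of the 37 were higher and 2 lower, against 6.13% and 3.44% of all genes. POMP (0.34) and TXNL1 (0.33), a thioredoxin bound to the regulatory particle, were higher, as were UFD1L (0.30), ZFAND2A (0.37) and the ubiquitin genes UBB (0.27) and RPS27A (0.45). NPLOC4 (-0.25), the partner of UFD1L, and the main E1 enzyme UBA1 (-0.23) were lower. Once the trend was removed 1 of the 37, TXNL1 (0.30, edgeR adjusted p = 0.0478), was higher and 0 lower, against 1.81% and 1.04% of all genes, and POMP had 0.02 (0.910). With median transcript lengths in the trend 4 were higher and 3 lower, against 5.42% and 3.69%.

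Of 15 partners of the immunoproteasome, chosen for interferon signalling and antigen presentation, 10 were tested. In B212 3 of the 10 were higher and 0 lower, a share near the 25.2% of all genes. They were STAT2 (0.77), JAK1 (0.57) and IRF1 (0.39), a factor that binds interferon-stimulated response elements. In the block fit 2 of the 10 were higher with E2, against 6.13% of all genes: B2M (0.39), the light chain of MHC class I, and the receptor gene IFNGR1 (0.31). Neither was called with the length and GC trend removed.

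Members with close copies elsewhere are less certain. RefSeq lists 52 pseudogenes named after 21 of the members, and 0 of these are rows of the table, so their reads may have been dropped or counted with the parent genes. Besides PSMA3-AS1, an antisense gene with counts of note was PSMD5-AS1, at 13.6% of the counts of PSMD5; those of PSMD6 and PSMG3 stayed under 1%.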

How the data were processed

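RNA was sequenced from 4 libraries of Ishikawa ER-Y537S cells, made with a stranded poly(A) kit per the labels' protocols. The deposited table holds raw counts per gene symbol; per the submitters' processing notes HISAT2, SAMtools, featureCounts, DESeq2 and build hg19 were used. Versions, annotation and strand setting are not given in the sources used here. Another 4 columns of values match no sample and were not used. The library totals were 71575816 to 85222856 counts, and the smallest count of a tested member was 166.

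From the counts, genes were filtered by filterByExpr (minimum count 10, leaving 15599), scaled by TMM and tested by the quasi-likelihood test of edgeR 4.0.16 in R 4.3.3, with Benjamini-Hochberg adjustment over all genes and a threshold of 0.05. Standard errors were computed as the fold change over the root of F. E2 was compared with DMSO with no block. The tags were compared with treatment as a covariate. Clone numbers in the labels pair a DMSO with an E2 library, and the column tags were taken to do so too: deviations of same-tag libraries correlated across genes (r = 0.871), so the block fit is printed where it changes a call.

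TPM used GENCODE 29, with the longest coding transcript of a symbol where it has one. The length and GC trend (mgcv 1.9.3) covered 93.5% of tested genes. Alternatives were DESeq2 1.42.0, limma-voom (limma 3.58.1), scaling, filters, thresholds and leaving out libraries. Scripts were tested on simulated data. Figures used Python 3.11.15 with matplotlib 3.10.9.

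Members described singly were the catalytic, interferon-induced and tissue-restricted subunits, activators, PSMF1 and PSMG chaperones, up to 10 called members per direction and fit by smallest p, otherwise the 3 with the smallest p, and the highest and lowest of each class per length. From other lists, called genes that differed by 0.5 or more on the log2 scale were named; others named were chosen after their values were seen, including the marker and neighbour genes. The symbol rule itself uses no measured value, but members and lists were chosen with earlier results of these data known.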

Additional observations from a re-analysis of the deposited data

Results flagged for a closer look

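For 5 members the direction of a difference turned between the tags or between the treatments, each value coming from 1 library per tag and treatment, so that the turn itself was not tested. With E2, PSMG2 changed by 0.20 on the log2 scale in A4 and by -0.0051 in B212, and B212 minus A4 was correspondingly 0.091 in DMSO and -0.12 in E2, a gap of 0.207 in both views. PSMC4 with E2 moved by 0.13 in A4 against -0.012 in B212, a gap of 0.141. For PSMD4 the A4 value was 0.062, the B212 value -0.092, a gap of 0.154. For PSMD12 they were -0.023 and 0.039, a gap of -0.062. PSMD10 differed between the tags by 0.079 in DMSO and -0.051 in E2, a gap of 0.130.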

How the results depend on the processing

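Between the tags, DESeq2, DESeq2 size factors, limma-voom, both gene filters and both length trends each called 41 members, 40 of them lower, and library size only called 39. With no treatment term 27 members and 4456 genes were called. Leaving out 1 library, also with no treatment term, gave 12 (without B212 DMSO) to 38 members and 3094 to 5639 genes. The class medians then ran from -0.66 to -0.28 (core), -0.60 to -0.47 (regulatory), -0.21 to -0.11 (activators) and -0.56 to -0.25 (core chaperones). The regulatory median was -0.51 with the trend removed and -0.49 with library size only, and the core chaperone median -0.31 and -0.34, or -0.33 with the median-length trend. The activator median was -0.094 with library size only. PSME2 turned to 0.037 with the trend removed and PSMG2 to 0.090, or to 0.055 with library size only and 0.068 with the median-length trend. PSMD10 turned to -0.0077 with no filter and -0.00091 with the median-length trend. Without a library PSMD10 ran from -0.15 to 0.17, PSME2 from -0.24 to 0.083 and PSMG2 from -0.11 to 0.080. The cause was not tested.

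For E2 with no block, 0 members were called under every scaling, filter, tool and left-out library run; DESeq2 called 1 gene. A replicate block on the tag gave 1492 genes and 17 members. With the block, DESeq2 gave 562 genes and 10 members, DESeq2 size factors 717 and 11, the filter of 10 counts 1560 and 16, library size only 1686 (911 higher, 775 lower) and 15, and limma-voom 1138 and 14. The length and GC trend gave 445 genes and 5 members, and the median-length trend 1421 and 16. Class medians with the trend removed were 0.088 (core), 0.016 (regulatory) and 0.24 (core chaperones), the last being 0.27 with library size only, with or without the block. PSMD12, near 0, turned to -0.0046 with DESeq2, -0.0045 with its size factors, -0.0039 with the filter of 10 counts, -0.020 with library size only, and with the block to -0.069 with the trend, -0.036 with the median-length trend and -0.012 with library size only. With block and trend PSMB5 was -0.0077 and PSMB6 -0.061. Leaving out 1 library unbalances the tags: medians ran from -0.014 (without A4 E2) to 0.59 (without B212 E2) in the core, -0.22 to 0.37 in the regulatory particle, -0.024 to 0.12 for activators and 0.042 to 0.50 for core chaperones. The ranges of single genes also crossed 0, as for PSMB3 (-0.055 to 0.76), PSMB5 (-0.19 to 0.36), PSMB6 (-0.18 to 0.35), PSMB7 (-0.014 to 0.43), PSMB10 (-0.45 to 1.41), PSMC1 (-0.15 to 0.55), PSMC4 (-0.35 to 0.39), PSMC6 (-0.053 to 0.61), PSMD4 (-0.23 to 0.17), PSMD12 (-0.26 to 0.29), PSMD13 (-0.13 to 0.68), PSME1 (-0.013 to 0.53), PSME3 (-0.33 to 0.19), PSME4 (-0.22 to 0.059) and PSMF1 (-0.35 to 0.13).

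The median of mean TPM over core genes was 425, and became 270.0 with median lengths and 145 with no rescaling to TPM. That of regulatory genes was 219, and became 168 and 74.7. Depth limits PSMB10 and PSMG4 most.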
